A study of Mus musculus with 6 samples.

Results

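Antioxidant enzymes limit the reactive oxygen species that respiration, peroxisomal oxidation and other reactions release in adipocytes. Transcripts of 10 genes were followed here, chosen by name from the 45706 genes of the count table, namely Sod1, Sod2, Sod3, Cat, Nqo1, Hmox1, Prdx1, Prdx3, Gpx3 and Gpx4. Of these, 9 passed the filter on low counts that left 11440 genes for testing, and Gpx3 had no count in any of the 6 samples. RNA was sequenced on day 7 of adipogenic differentiation from 3T3-L1 cells, a line of mouse embryo fibroblasts that can be turned into adipocytes, in 3 scrambled control samples (genotype given as WT) and 3 RBMS1 knockdown samples (genotype given as RBMS1KD). The knockdown cells were made with a lentiviral shRNA against Rbms1 and puromycin selection, and the paper describes the controls as stably expressing a scrambled shRNA. All 6 samples received IBMX, dexamethasone, insulin and rosiglitazone. Whether each line was a pool or a clone is not given in the sources used here, and the labels do not say whether the replicates were separate cultures. The paper's methods call them biological and say of its experiments in general that they were repeated independently. The p-values measure the spread between these samples.

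The enzymes work in sequence. Superoxide dismutases turn superoxide into hydrogen peroxide, and catalase, the peroxiredoxins and the glutathione peroxidases then remove the peroxide, or in the case of Gpx4 the lipid peroxides of membranes. NQO1 reduces quinones and heme oxygenase 1 breaks down heme, and the genes of both enzymes are textbook targets of NRF2, a transcription factor that binds antioxidant response elements and is held back by KEAP1. Hydrogen peroxide is also a signal in fat cells, where it is released in response to insulin.

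The antioxidant response element is the sequence through which NRF2 acts, so promoters of the genes were searched for it and are shown where it was found, together with the promoter of Cat, 1 of the genes with the largest differences between the groups. Promoter windows of RefSeq (GRCm38.p6) were at hand for 8 of the 10 genes, not for Sod3 or Hmox1, and the 250 bases before each start were searched on both strands. The element was searched as TGACNNNGC, which matched in 10.2% of 32851 promoters and, among these genes, in those of Prdx1 and Sod1. The window of Nqo1 held no match, and stretches further from the start were not searched in any gene. The stretches from 250 to 21 bases before the start are printed 5′ to 3′ along the gene, with the element in capitals for Prdx1 (chr4:116685349-116685578, plus strand) and Sod1 (chr16:90220512-90220741, plus strand). In that of Cat (chr2:103485174-103485403, minus strand) the capitals mark the CCAAT box in either orientation.
Prdx1: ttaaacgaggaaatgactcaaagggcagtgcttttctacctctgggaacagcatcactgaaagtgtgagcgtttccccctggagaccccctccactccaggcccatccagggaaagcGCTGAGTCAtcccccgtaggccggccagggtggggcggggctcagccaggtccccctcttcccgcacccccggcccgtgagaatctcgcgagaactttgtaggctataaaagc
Sod1: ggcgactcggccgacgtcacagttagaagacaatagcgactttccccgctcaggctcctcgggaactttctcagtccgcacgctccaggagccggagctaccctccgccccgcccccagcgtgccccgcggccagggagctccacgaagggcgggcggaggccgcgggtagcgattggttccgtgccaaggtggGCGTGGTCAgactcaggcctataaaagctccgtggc
Cat: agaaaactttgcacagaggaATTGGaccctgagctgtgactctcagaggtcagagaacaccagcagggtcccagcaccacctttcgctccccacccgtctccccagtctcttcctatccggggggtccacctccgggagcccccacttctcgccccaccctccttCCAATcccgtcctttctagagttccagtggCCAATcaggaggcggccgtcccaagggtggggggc
The capitals of Prdx1 and Sod1 lie on the opposite strand to the motif as it is spelled above. The CCAAT box, searched as CCAAT, matched in 33.8% of all promoters and in those of Cat, Gpx3, Gpx4, Sod1 and Sod2, and a further match in Cat lay in the 20 bases nearest the start, which are not printed. The GC box, searched as GGGCGG, matched in all 8 genes and in 32.7% of all promoters. The TATA box, searched as TATAAA, matched in Nqo1, Prdx1, Prdx3 and Sod1 and in 12.4% of all promoters. No window of these genes matched the forkhead motif TGTTTAC, which 3.17% of promoters held, or the spaced repeat AGGTCANAGGTCA of PPARγ, which 0.0335% held. These matches are descriptions of letters in a window and not of binding.

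Total counts ranged from 3142695 to 11073098 a sample, and the scaling factors of edgeR's TMM method from 0.642 to 1.23. Scrambled control replicate 2 stood apart, with the lowest total and 43.0% of its counts in transcripts derived from ribosomal RNA, against 8.12% to 17.8% in the other 5 samples. Rbms1 itself had 113, 102 and 99.6 CPM (the usual scaled counts, relative to a library size that TMM has adjusted) in the controls and 49.2, 61.4 and 84.0 in the knockdown. Its difference was -0.69 on the log2 scale, with a standard error of 0.20 and an adjusted p of 0.185 in edgeR. The targeted gene thus did not reach the threshold of 0.1, although no knockdown sample overlapped the controls. The paper reports the knockdown in protein, by immunoblot. Levels are given as CPM below, and log2 fold changes are of RBMS1 knockdown over scrambled control.

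At an adjusted p of 0.1 or less, edgeR's quasi-likelihood test called 0 of the 9 tested antioxidant enzyme genes, where 1.22% of all tested genes were called (0.909% as lower). All 9 had a log2 fold change below 0 with TMM scaling, with a median of -0.36 against 0.0044 for all tested genes, whereas with library sizes alone, which moved the median of all genes to 0.37, only Sod3, Cat and Nqo1 were below 0 and the median of the 9 was 0.018. Sod3 and Cat had the largest differences, with levels in the knockdown of 0.536 (95% interval 0.388 to 0.739) and 0.550 (0.401 to 0.753) times those of the controls. DESeq2, the tool that the paper used, called both (adjusted p = 0.0139 for Sod3 and 0.0060 for Cat). It thus called 2 of the 9, and 3.2% of the genes it tested. At an unadjusted p under 0.05, edgeR counted 4 of the 9 genes (Sod3, Cat, Sod2 and Gpx4), all lower, where 12.4% of all genes, and 6.98% as lower, passed. In the same 4 genes, with TMM scaling, every knockdown sample lay below every control, which held for 9.55% of all tested genes.

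**Figure D1:**
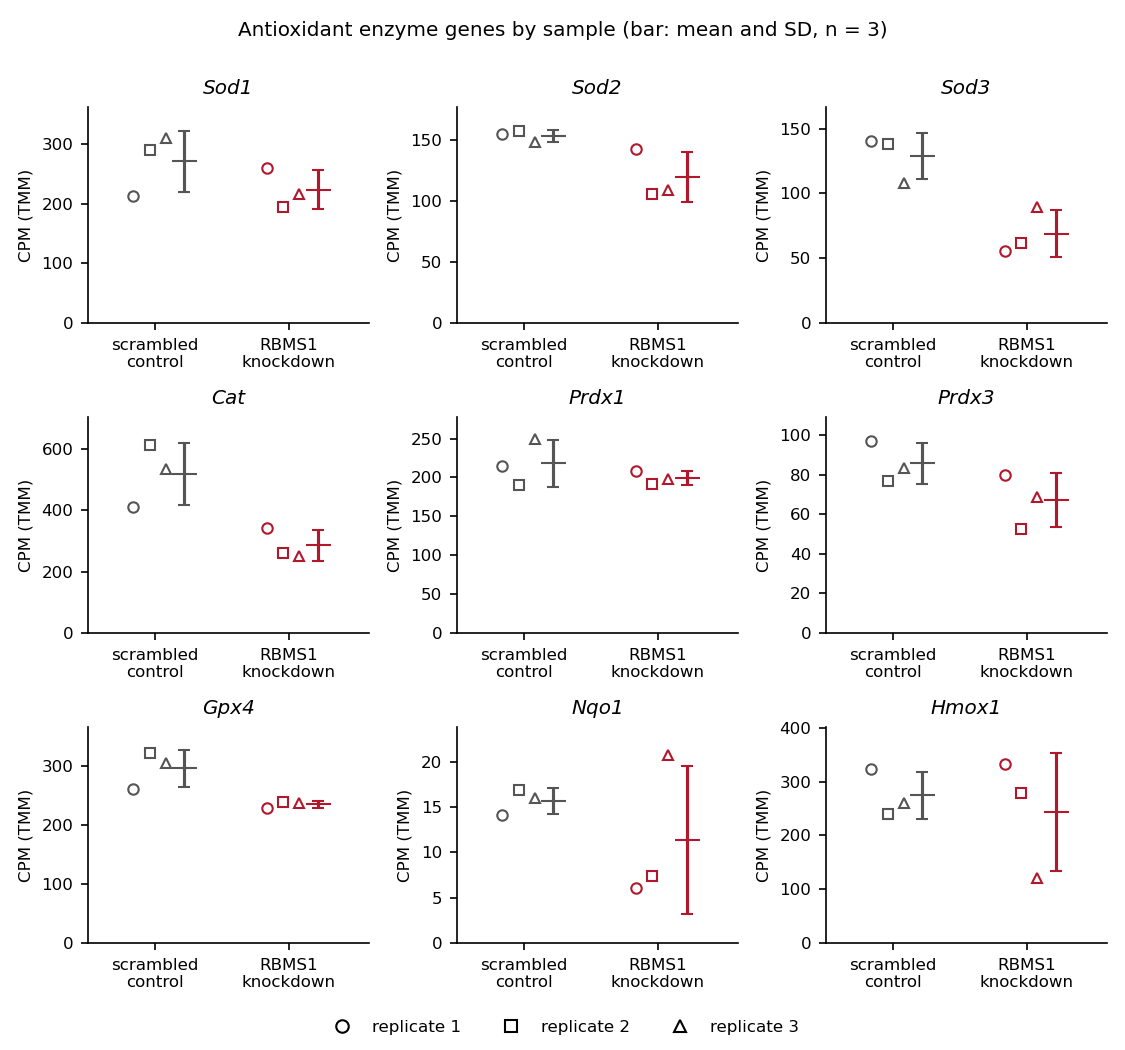
TMM-normalized CPM (vertical axes, from 0) of the 9 antioxidant enzyme genes with counts, in 3 scrambled control and 3 RBMS1 knockdown samples. Symbols mark replicates 1 to 3 and bars the mean and SD (n = 3). With this scaling, the knockdown samples lay below every control for Sod2, Sod3, Cat and Gpx4, while knockdown replicate 3 stood far from the others for Nqo1 and Hmox1.

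Among the superoxide dismutases, Sod3 encodes the copper and zinc enzyme that is secreted and bound to the extracellular matrix. It is ENSMUSG00000072941 on chromosome 5 of GRCm38, from 52363791 to 52371418 on the plus strand. Its level was 140, 138 and 108 CPM in scrambled control replicates 1, 2 and 3 and 55.5, 61.8 and 89.7 CPM in RBMS1 knockdown replicates 1, 2 and 3. All knockdown samples lay below all controls, and knockdown replicate 3 lay nearest to them. On the log2 scale the difference was -0.90 (standard error, SE, 0.21, 95% interval -1.36 to -0.44, adjusted p = 0.111 by edgeR). This p missed the threshold, and it ranged from 0.0139 (DESeq2) to 0.388 (library sizes alone) over 19 alternative settings of the processing, 5 of which called the gene. Among these were the fits without knockdown replicate 1 (-0.76, adjusted p = 0.0773) and without knockdown replicate 3 (-1.13, adjusted p = 0.0337).

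Sod2 encodes the manganese enzyme of the mitochondrial matrix. Its level was 155, 157 and 148 CPM in the controls and 143, 106 and 109 CPM in the knockdown. The controls varied by 3.02% (coefficient of variation) and knockdown replicate 1 lay close to them. This gave a log2 fold change of -0.36 (SE 0.16, 95% interval -0.72 to -0.0038, adjusted p = 0.395 by edgeR), and without knockdown replicate 1 it was -0.50 with an adjusted p of 0.0935, past the threshold. This was the only 1 of the 19 alternative settings of the processing that called Sod2, and the difference was -0.27 (adjusted p = 0.698) without knockdown replicate 2 and -0.30 (adjusted p = 0.602) without replicate 3.

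Sod1 encodes the copper and zinc enzyme of the cytosol. Its level was 213, 289 and 311 CPM in the controls and 259, 194 and 217 CPM in the knockdown. The groups overlapped, with control replicate 1 below knockdown replicates 1 and 3. With a log2 fold change of -0.28 (SE 0.19, 95% interval -0.70 to 0.14, adjusted p = 0.592 by edgeR), Sod1 was not called. Without a single sample it ranged from -0.42 (without control replicate 1) to -0.17 (without control replicate 3). Estimated counts of Sod1 were not whole in 5 of the 6 samples (tolerance 1e-06), by at most 0.227 of a count, and the gene overlaps Scaf4 on the opposite strand. Whether reads were shared was not tested.

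Cat encodes catalase, the heme enzyme of peroxisomes that splits hydrogen peroxide into water and oxygen. It is ENSMUSG00000027187 on chromosome 2 of GRCm38, from 103453849 to 103485160 on the minus strand. Its level was 411, 613 and 535 CPM in the controls and 343, 262 and 253 CPM in the knockdown. The groups did not overlap, although knockdown replicate 1 lay nearer to control replicate 1 than to the other knockdown samples. Catalase transcripts thus had a log2 fold change of -0.86 (SE 0.20, 95% interval -1.32 to -0.41, adjusted p = 0.115 by edgeR). This p ranged from 0.0060 (DESeq2) to 0.414 (library sizes alone) over the 19 alternatives, 3 of which called the gene, and without knockdown replicate 1 it was 0.0240 with a log2 fold change of -1.01.

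The peroxiredoxins reduce peroxides with electrons from thioredoxin. Prdx3, the mitochondrial enzyme, had 97.0, 76.9 and 83.3 CPM in the controls and 79.6, 52.5 and 68.9 CPM in the knockdown. Only control replicate 2, the shallowest library, lay below a knockdown sample. Prdx3 had a log2 fold change of -0.36 (SE 0.19, 95% interval -0.77 to 0.059, adjusted p = 0.478 by edgeR), and -0.19 without knockdown replicate 2. Prdx1, an abundant cytosolic enzyme, had 214, 190 and 249 CPM in the controls and 209, 191 and 198 CPM in the knockdown. The knockdown samples fell within the range of the controls. Its log2 fold change was -0.13 (SE 0.15, 95% interval -0.47 to 0.21, adjusted p = 0.782 by edgeR), the smallest in size among the 9. It was -0.022 without control replicate 3 and -0.22 without control replicate 2. Its estimated counts differed from whole numbers in 5 samples, by at most 0.084.

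Glutathione peroxidases use glutathione, and Gpx4, a selenoprotein, is the enzyme that reduces lipid hydroperoxides within membranes and protects cells from ferroptosis. Its level was 261, 323 and 306 CPM in the controls and 228, 240 and 237 CPM in the knockdown. The knockdown samples were close together, with a coefficient of variation of 2.51% against 10.7% in the controls, and all lay below the lowest control. For Gpx4 the log2 fold change was -0.33 (SE 0.15, 95% interval -0.67 to -0.0027, adjusted p = 0.397 by edgeR). Estimated counts of Gpx4 differed from whole numbers in 4 samples, by at most 0.001. Gpx3, the glutathione peroxidase secreted into plasma, had no count in any sample. In each sample alone, a count of 0 allows up to 3 counts, or 0.22 to 1.49 CPM depending on the sample, counting error only. All samples together allow less. Whether the annotation or the quantification left the gene out was not tested.

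Nqo1 and Hmox1 differed among the knockdown samples more than any other of these genes. Nqo1 had 14.1, 16.9 and 16.0 CPM in the controls and 6.04, 7.36 and 20.8 CPM in the knockdown. Knockdown replicates 1 and 2 lay below all controls and replicate 3 above all of them, with a coefficient of variation of 71.6% against 9.04% in the controls. Over all samples the log2 fold change was -0.44 (SE 0.42, 95% interval -1.39 to 0.51, adjusted p = 0.730 by edgeR), and -1.21 with an adjusted p of 0.112 without knockdown replicate 3. It was -0.13 without knockdown replicate 1 and -0.19 without replicate 2.

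Hmox1 had 324, 239 and 260 CPM in the controls and 332, 279 and 121 CPM in the knockdown. Here too replicate 3 stood apart, below all other samples, while replicate 2 lay within the range of the controls and replicate 1 just above it (coefficient of variation 44.8% in the knockdown, 16.1% in the controls). Hmox1 had a log2 fold change of -0.17 (SE 0.32, 95% interval -0.88 to 0.54, adjusted p = 0.875 by edgeR), and 0.16 without knockdown replicate 3. Both textbook NRF2 targets were thus at an extreme in the same sample, Nqo1 at its highest and Hmox1 at its lowest.

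Nqo1 and Hmox1 both lie on chromosome 8 (GRCm38, 107388225 to 107403206 and 75093621 to 75100589). On that chromosome 624 genes were tested, 90.1% of them had log2 fold changes below 0 and the median was -0.38. Their median difference from the control mean was -0.36, -0.39 and -0.35 in knockdown replicates 1, 2 and 3 and between -0.032 and 0.037 in the controls, so it was alike in the sample that stood apart. With the median of each chromosome removed from each sample, the log2 fold change was -0.054 for Nqo1 and 0.22 for Hmox1. Sod3 and Cat, on chromosomes 5 and 2, had -0.92 and -0.88 under the same removal.

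**Figure D2:**
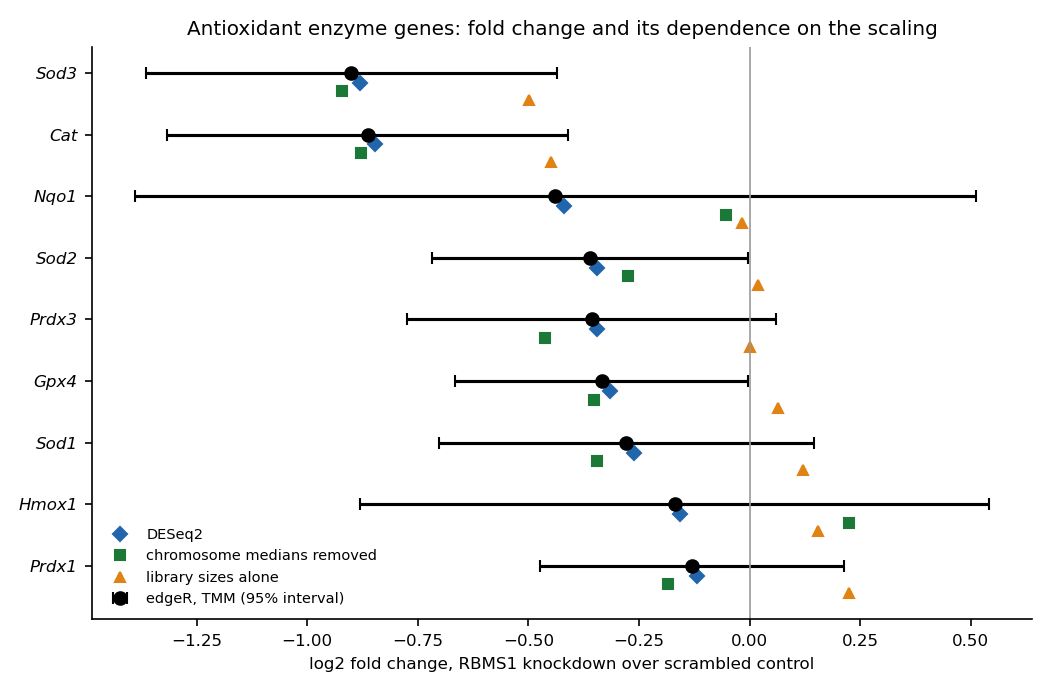
Log2 fold change of RBMS1 knockdown over scrambled control (horizontal axis) for the 9 tested antioxidant enzyme genes, by edgeR with TMM scaling (circles, with 95% intervals) and under 3 alternatives. Sod3 and Cat stayed below 0 in all 4, while library sizes alone put Sod1, Sod2, Prdx1, Prdx3, Gpx4 and Hmox1 at or above 0, and removal of chromosome medians put Hmox1 above 0.

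The genes did not follow 1 order across samples. Of the 9 genes, 3 had their lowest level in knockdown replicate 1, 3 in replicate 2, 2 in replicate 3 and 1 in control replicate 2. The median difference of the 9 genes from the control mean was -0.10 in knockdown replicate 1, -0.53 in replicate 2 and -0.32 in replicate 3 on the log2 scale, and between -0.015 and 0.11 in the controls. Replicate 1 held the largest difference of Sod3 and the smallest of Cat among the knockdown samples. Summed over the 10 genes, the level was 1830 to 2043 CPM in the controls and 1314 to 1655 CPM in the knockdown.

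**Figure D3:**
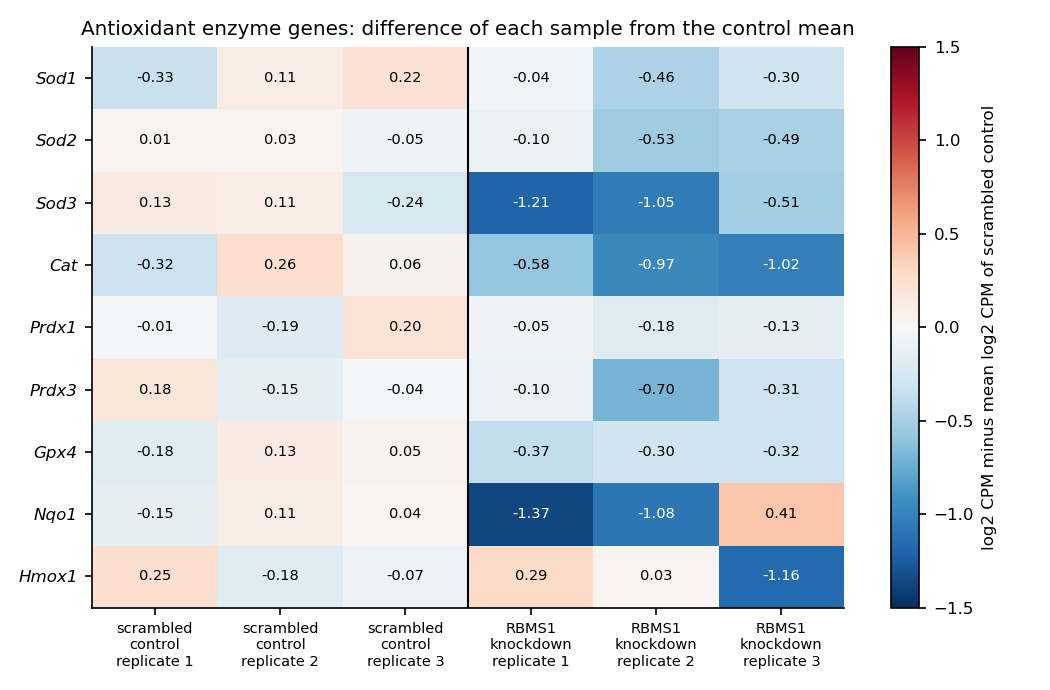
Log2 CPM of each sample minus the mean log2 CPM of the scrambled controls (colour scale, printed in each cell) for the 9 tested antioxidant enzyme genes (rows) in the 6 samples (columns). Sod3 was lowest in knockdown replicate 1 (-1.21) and Cat in replicate 3 (-1.02), and replicate 3 was high for Nqo1 (0.41) and low for Hmox1 (-1.16).

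Levels of different genes were compared per length, as CPM per kb of exon, with the exons of all transcripts of a gene merged. In the controls, Cat (199 ± 39.0, SD, n = 3), Gpx4 (172 ± 18.4) and Hmox1 (157 ± 25.2) had the highest levels, and their ranges over samples overlapped. Prdx1 (71.6 ± 9.81), Sod1 (68.3 ± 12.9) and Prdx3 (58.0 ± 6.93) came next and overlapped as well. Sod3 (34.5 ± 4.77), Sod2 (15.3 ± 0.462) and Nqo1 (10.1 ± 0.911) followed, each below the range of the one before. The merged exons of Sod2 span 10008 bases and those of Prdx3 1478, and a long isoform that is little used lowers this value. In the knockdown, the order of the group means put Hmox1 (139 ± 62.4) and Gpx4 (136 ± 3.43) before Cat (109 ± 19.0), and Nqo1 (7.34 ± 5.25) overlapped Sod2 (11.9 ± 2.04).

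Ratios within a sample do not depend on the library scaling, and 8 such ratios of levels per length were computed after the values had been seen, so they are descriptions. Cat to Sod1 was 2.93, 3.22 and 2.62 in the controls and 2.01, 2.05 and 1.77 in the knockdown. Cat to Prdx1 was 2.23, 3.76 and 2.5 in the controls and 1.91, 1.6 and 1.49 in the knockdown. In both, all knockdown samples lay below all controls. The other 6 ratios overlapped between the groups, among them Sod3 to Sod1 (0.370 to 0.700 in the controls, 0.227 to 0.439 in the knockdown) and Sod2 to Sod1 (0.189 to 0.288 and 0.20 to 0.218). The others were of Hmox1, Nqo1, Gpx4 and Prdx3 to Prdx1.

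Sod3 had the smallest p of these genes in edgeR (in DESeq2 it was Cat), and the levels most like it over the 6 samples, by Pearson's r of log2 CPM, were those of Srpx2 (r = 0.996), Rnh1 (r = 0.993) and Fndc3b (r = 0.991). As many as 45 tested genes reached an r of 0.95, and all such values rest on 6 samples that fall into the compared groups. Srpx2 had 35.3, 32.8 and 24.8 CPM in the controls and 5.46, 6.55 and 14.98 CPM in the knockdown, and was called by edgeR (log2 fold change -1.76, adjusted p = 0.0842).

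The neighbouring genes of the pathway were followed in 9 lists with 130 genes, of which 113 were tested. None was called by edgeR at an adjusted p of 0.1 or less (0 of 113), where 1.22% of all tested genes were. At an unadjusted p under 0.05 there were 9 lower and 4 higher genes of the 113, a share no higher than the 12.4% of all tested genes. DESeq2 called 2, Gstm1 and Tkt, again no more than its share of 3.2% over all genes. The median log2 fold change was -0.095 with TMM scaling and 0.27 with library sizes alone, a setting in which that of all tested genes was 0.37. Below 0 were 73 of the 113 with TMM scaling and 22 of the 113 with library sizes alone. The counts of genes below 0 and the medians in each list that follow are with TMM scaling unless library sizes alone are named. Between the groups, 12 genes did not overlap and were lower and 7 were higher in the knockdown, where 9.55% and 8.96% of all tested genes did so.

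NRF2 (Nfe2l2) had 79.2, 82.9 and 82.8 CPM in the controls and 75.8, 75.4 and 60.6 CPM in the knockdown (log2 fold change -0.21, adjusted p = 0.620 by edgeR), and its inhibitor Keap1 had -0.09 (adjusted p = 0.850). With library sizes alone both turned above 0 (0.16 and 0.28), where the median of all tested genes was 0.37. In the list of NRF2 control, 0 of 12 tested genes were called, and the smallest p were those of Cul3 (0.22), the scaffold of the ligase that degrades NRF2, Nfe2l2 and Maff (-0.54), a small MAF partner (log2 fold changes in parentheses here and for the lists that follow).

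Of the other textbook NRF2 targets, 19 were tested, 14 were below 0 (10 with library sizes alone) and the median was -0.34 (-0.0050 with library sizes alone). Gstm1, a glutathione transferase, had 225, 193 and 191 CPM in the controls and 153, 99.95 and 84.9 CPM in the knockdown (-0.85, adjusted p = 0.145 by edgeR and 0.0242 by DESeq2). Tkt, an enzyme of the pentose phosphate pathway, which supplies NADPH, had 534, 529 and 514 CPM in the controls and 441, 245 and 210 CPM in the knockdown (-0.82, adjusted p = 0.227 by edgeR and 0.0742 by DESeq2). In neither did the groups overlap. Osgin1 followed (-0.83) and lies on chromosome 8, as does Gsr (-0.41), the glutathione reductase.

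Among other peroxidases, 3 of 7 tested genes were below 0 with TMM scaling and 0 of 7 with library sizes alone. The median was 0.10 with TMM and 0.49 with library sizes alone. Prdx6 had 29.8, 26.3 and 31.7 CPM in the controls and 38.1, 50.8 and 46.8 CPM in the knockdown, so that the lowest knockdown sample lay above the highest control (0.63, adjusted p = 0.169 by edgeR). It lies on chromosome 1, where 675 genes were tested, 21.6% of them had log2 fold changes below 0 and the median was 0.25. Prdx4 (0.38) and Gpx1 (-0.40) overlapped between the groups. Gpx1, the cytosolic glutathione peroxidase, had 72.1, 86.9 and 84.8 CPM in the controls and 34.6, 62.7 and 86.7 CPM in the knockdown, and its log2 fold change ranged from -0.73 (without knockdown replicate 3) to 0.0072 (library sizes alone) over the alternatives. Within the thioredoxin system, 10 of 15 genes were below 0, and Txn2, the mitochondrial thioredoxin that serves Prdx3, had 71.5, 64.0 and 76.6 CPM in the controls and 102, 96.9 and 104 CPM in the knockdown (0.51, adjusted p = 0.166). Glrx, a glutaredoxin (-0.57), and Msra, a methionine sulfoxide reductase (-0.48), had the next smallest p.

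Supply and company of the enzymes gave 0 calls by edgeR in each list. For heme and iron, 7 of 12 genes were below 0, with Alas1, the rate-limiting enzyme of heme synthesis (-0.43), Fech, its last enzyme (-0.28), and the ferritin heavy chain Fth1 (-0.45) below every control in all knockdown samples. For selenoproteins, 9 of 16 genes were below 0, with Sephs2, the selenophosphate synthetase (-0.60), Selenow (0.59) and Selenop, the selenium carrier (-0.57), at the smallest p. For the metals of the dismutases, 6 of 9 genes were below 0, with Slc39a14, a manganese and zinc importer (0.50), Mt1, a metallothionein on chromosome 8 (-0.61), and Slc31a1, the copper importer (0.37), at the smallest p. For sources of superoxide and hydrogen peroxide, only 5 of 15 genes were tested, 2 of them below 0, and Maoa (0.91), Nox4 (0.79) and Xdh (0.09) overlapped between the groups. Maoa, a monoamine oxidase that releases hydrogen peroxide, had 75.7, 76.9 and 69.5 CPM in the controls and 39.1, 188 and 189 CPM in the knockdown. Knockdown replicate 1 lay below the controls and the other knockdown samples above them, and without replicate 1 Maoa was called (1.36, adjusted p = 0.0024 by edgeR). For the peroxisomal genes around catalase, 16 of 20 were below 0 (3 with library sizes alone), with a median of -0.15 (0.22 with library sizes alone). Pxmp4 (-0.40) and Pex10 (-0.61) were among those with the smallest p.

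**Figure D4:**
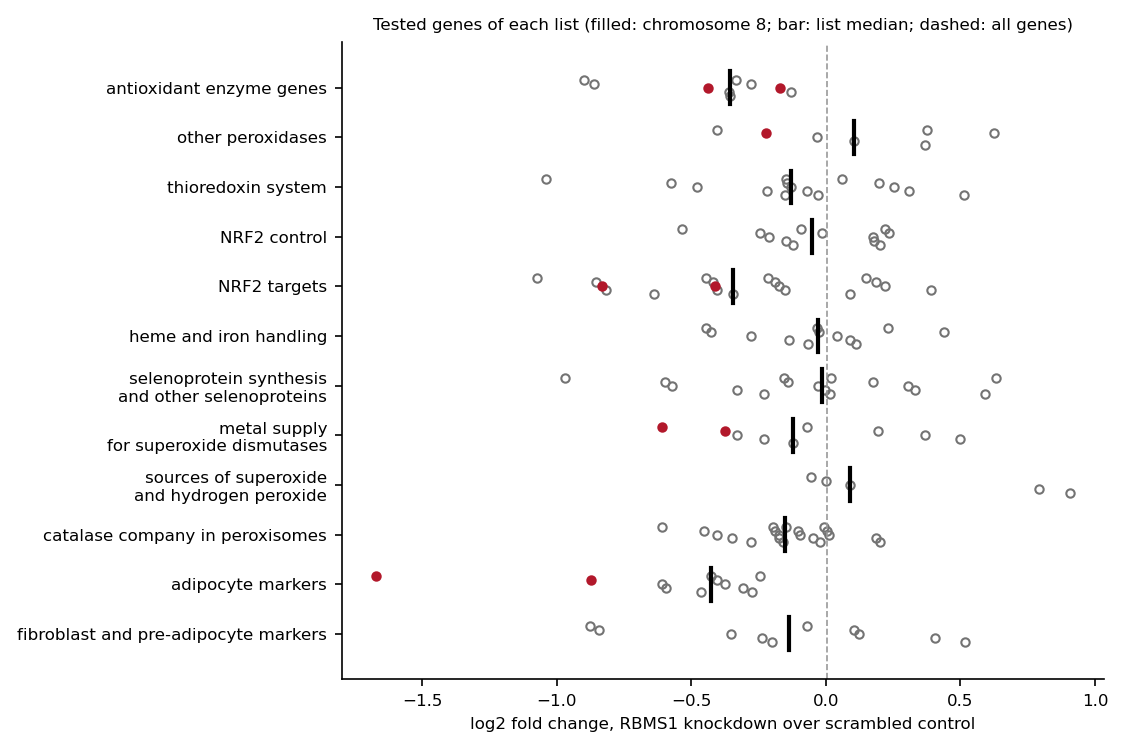
Log2 fold change (horizontal axis) of each tested gene in the antioxidant enzyme list, the 9 pathway lists and 2 marker lists (rows), with genes of chromosome 8 filled, list medians as bars and the median of all tested genes as a dashed line. With TMM scaling, as drawn, the median of the antioxidant enzyme genes was -0.36 and that of the adipocyte markers -0.43. With library sizes alone these medians were 0.018 and -0.031.

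The adipocyte content of the samples was followed with marker genes. Of 12 markers, all but Lep were tested, and all 11 had a log2 fold change below 0 with TMM scaling (8 of 11 with library sizes alone). Their median was -0.43 with TMM scaling and -0.031 with library sizes alone. Their summed level was 23501 to 26647 CPM in the controls and 21858, 12036 and 14387 CPM in knockdown replicates 1, 2 and 3. Retn, which encodes resistin and lies on chromosome 8, was the only one called by edgeR (-1.67, adjusted p = 0.0967), DESeq2 called 2, Retn and Lpl, and Adipoq (-0.24), Fabp4 (-0.46), Plin1 (-0.43), Pparg (-0.31) and Cebpa (-0.61) were not. Fibroblast and pre-adipocyte markers were below 0 in 6 of 10 with TMM scaling and in 2 of 10 with library sizes alone. None was called by edgeR and 1, Pdgfra, by DESeq2. Their log2 fold changes ran from -0.87 (Pdgfra, adjusted p = 0.155) to 0.52 (Acta2, adjusted p = 0.865), with Col1a1 at -0.35. Their summed level was 9214 to 10643 CPM in the controls and 5158, 11649 and 11808 CPM in knockdown replicates 1, 2 and 3. Knockdown replicate 1 thus stood apart in both marker lists, with the highest adipocyte and the lowest fibroblast sum of the knockdown samples. The adipocyte sums and the medians of the enzyme genes (-0.10, -0.53 and -0.32) had the same order over the 3 knockdown samples, which was not tested. Taken singly, Sod1, Sod2, Prdx1 and Prdx3 had this order, and Sod3, Cat, Gpx4, Nqo1 and Hmox1 did not. Sod3 was lowest in knockdown replicate 1 (-1.21) and Cat in knockdown replicate 3 (-1.02). Macrophage and endothelial markers summed to 1.38 to 4.47 CPM, and 3 of the 8, Adgre1, Ptprc and Kdr, had no count in any sample. The part of adipocyte content in the enzyme levels was not tested. Fewer adipocytes and less RNA of these genes per adipocyte cannot be told apart in these bulk samples. In the paper, oil red O staining found no difference in lipid content after the knockdown. PPARγ and adiponectin were unaffected there in mRNA and protein, while C/EBPα and HSL were lower and ATGL was lower in protein alone.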

How the data were processed

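Stranded libraries depleted of ribosomal RNA were sequenced from 6 samples of differentiated 3T3-L1 cells (day 7). Per the labels and the paper's methods, Trim Galore 0.6.7 was used for trimming, STAR 2.7.10a for alignment to GRCm38 and Salmon 1.9.0 for quantification. The deposited values are estimated counts of each gene, which the authors took from Salmon without normalization, and the annotation release is not given in the sources used here. After rounding, edgeR 4.0.16 in R 4.3.3 was run with filterByExpr, TMM factors, glmQLFit and glmQLFTest, condition as the sole term, with 95% intervals and Benjamini-Hochberg adjustment over 11440 genes. The cut for a call, 0.1 on the adjusted p, is that of the paper's Results, while its methods give 0.05. The paper tested with DESeq2 and reported 430 genes. DESeq2 as run here also called 430, Sod3 and Cat among them. An exact permutation of 3 against 3 samples has 0.1 as its smallest p, so none was run. DESeq2 1.42.0 and limma 3.58.1 were alternatives. The code was tested on simulated data.

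Positions and lengths are from GRCm38 gene models, which cover 11402 of the genes tested. Members and lists were chosen with earlier results of these data known. The estimator setting of glmQLFit (the newer one, as against the default of this version) and the library sizes over filtered genes were chosen after a first run with the default had been seen. The ratios, motifs and chromosome 8 values by sample were also chosen after values had been seen. The text names all members, Rbms1, called genes of the lists, the 3 smallest p of each pathway list, the 3 genes most like Sod3 and 7 marker genes, except for 1 gene that is not reported here. Named beyond the rule, with values already known, are Gsr, Keap1, Scaf4, Acta2, Lep, Lpl, Adgre1, Ptprc and Kdr. Of the selenoprotein genes, 9 were matched by gene ID because the table holds older symbols.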

Additional observations from a re-analysis of the deposited data

How the results depend on the processing

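The 9 tested antioxidant enzyme genes were fitted under 19 alternatives, and 0 were called under most. DESeq2 called 2 of them (with 430 genes in all and 2 of the pathway lists), no filter on low counts 2 (268 in all, 1 of the pathway lists) and removal of the GC and length trend 1. Leaving out each sample in turn called 0 to 3 of them, 0 to 12 of the pathway genes and 12 to 696 of all genes, the fewest without scrambled control replicate 2 and the most without RBMS1 knockdown replicate 1, where Sod2, Sod3 and Cat were called, with Gstm1, Tkt, Prdx6, Glrx, Alas1, Maoa and Pxmp4 among the 12 pathway genes, and without replicate 3 Sod3 was called (adjusted p = 0.0337). The edgeR estimates used before the present ones, which are the default in this version, called 122 genes in place of 140 and 0 of the 9. Removal of chromosome medians left 73 calls. Library sizes alone moved the median of the 9 genes to 0.018 and turned Sod1 (0.12), Sod2 (0.018), Hmox1 (0.16), Prdx1 (0.23), Prdx3 (0.0012) and Gpx4 (0.064) above 0, against a median of all genes of 0.37, and the share of calls that were lower went from 74.3% to 33.3%. Hmox1 also turned above 0 with chromosome medians removed (0.22) and without RBMS1 knockdown replicate 3 (0.16), and ranged from -0.45 to 0.16 when samples were left out in turn. A block on the replicate number left 39 calls and 0 of the 9. Samples of the same number did not deviate together (correlations of -0.14, 0.078 and -0.028), so the numbers do not pair the samples. The spread that decides whether the median of the 9 moved (SD 0.158, log2) was redefined after a first version had been seen. The causes of these changes were not tested. Nqo1 had the fewest counts of the tested members, 34 to 283 a sample.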
